A study of Mus musculus with 12 samples.

Results

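The genes described here encode the receptors for glutamate and GABA, the main excitatory and inhibitory transmitters of the brain. Members were the protein-coding genes of the count table whose symbols begin with the names of the glutamate receptor series (Gria, Grin, Grik, Grid and Grm) or of the GABA receptor series (Gabra, Gabrb, Gabrg, Gabrd, Gabre, Gabrq, Gabrr and Gabbr). Gabra6 and the Gabarap genes were excluded by that rule. The rule found 46 members among 21974 protein-coding genes and 55487 genes in all, and it took in 1 gene that is no receptor, Grid2ip, whose product is a scaffold of Purkinje cell synapses. The antisense transcript Grin1os, which overlaps Grin1 on the other strand, was not a member.

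Total RNA of liver and brain was sequenced from 6 mice, each of which gave 1 library per tissue, so there were 4 groups of 3 libraries. Mice A, C and F are labelled KO and carry a whole-body deletion of Mettl5, which encodes an enzyme that methylates adenosine in 18S rRNA. That allele came from a floxed exon 2 crossed to a CMV-cre line, on a background of mixed C57bl/6 and 129S6 origin backcrossed to B6. Mice B, D and E are labelled WT, whereas the study's text describes heterozygous (Mettl5+/-) controls for its RNA sequencing, so WT here means the libraries so labelled. The labels give no age, sex, litter or batch, and the study's text states that both sexes were used. That text also speaks of pairs of mice for the RNA sequencing, but the labels do not say which KO and WT mice belong together, so no pairs between genotypes were fitted and any pairing was not tested. Mettl5 lay between 3.33 and 3.96 CPM in the KO brains and between 5.02 and 9.09 CPM in the WT brains, and between 3.64 and 4.07 CPM in the KO livers against 8.13 to 14.9 CPM in the WT livers. CPM are counts scaled to the library total, here with edgeR's TMM factors within a tissue. The log2 fold change of Mettl5 was -0.84 (SE 0.27, adjusted p = 0.373) in brain and -1.44 (SE 0.27, adjusted p = 0.383) in liver. An exact permutation test of its level gave p = 0.1 in brain and in liver, the lowest value possible with 3 libraries a side. The counts sum over all exons, so reads from exons outside the deletion are included.

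Library totals ran from 14403309 to 18365114 counts in brain and from 16145754 to 21623180 in liver. Mice E and F, 1 of each genotype, had at most 20 counts of Y-linked transcripts in a library, and the other 4 mice had at least 2112. The summed level of 6 neuron markers was 3791 to 4389 CPM in brain and 10.3 to 20.1 CPM in liver, and that of 5 hepatocyte markers was 55498 to 74711 CPM in liver and 12.2 to 31.0 CPM in brain, as the tissue labels say. Mitochondrial rRNA (mt-Rnr1 plus mt-Rnr2) made up 21.4 to 31.6% of the counts in KO brains and 7.63 to 17.7% in WT brains, so these groups did not overlap. In liver the order was the other way round, also without overlap, at 7.36 to 8.66% in KO and 10.7 to 16.9% in WT. The members together took 0.439 to 0.548% of the counts in KO brains and 0.504 to 0.597% in WT brains.

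Fast excitation runs through ionotropic glutamate receptors, which are tetrameric cation channels. AMPA receptors (Gria) carry most of the fast current, NMDA receptors (Grin) admit calcium when glutamate and depolarisation coincide, kainate receptors (Grik) tune release and excitability, and the delta receptors (Grid) organise synapses by binding cerebellins. Metabotropic glutamate receptors (Grm) couple to G proteins, with group I exciting and groups II and III mostly damping release. GABA-A receptors (Gabra to Gabrr) are pentameric chloride channels, most often built from alpha, beta and gamma or delta subunits, and GABA-B receptors are obligate dimers of Gabbr1 and Gabbr2 that couple to G proteins. Subunit choice differs between cell types. Cerebellar granule cells are known for Grin2c, Grm4 and Gabrd, and Purkinje cells, the output neurons of the cerebellar cortex, for Grid2ip.

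The WT brain order of levels was read first, per length, since longer transcripts gather more reads. Gria1, an AMPA subunit, was the highest member at 56.4, 60.3 and 65.7 CPM per kb of exon in mice B, D and E (mean 60.8 ± 4.69, SD, n = 3). Gabbr1, which holds the GABA binding site of the GABA-B receptor, followed at 55.3, 60.0 and 65.0 CPM per kb. Their ranges overlapped, and both lay above 97.8% of the 17188 genes tested in brain.

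Leading members of other families sat lower. Grm3, a group II receptor also known from astrocytes, had 30.2, 18.8 and 32.7 CPM per kb in WT mice B, D and E. Grin1, the obligate NMDA subunit, had 19.4, 30.8 and 29.9 CPM per kb. Gabrb2, the leading beta subunit of GABA-A receptors, had 26.0, 19.1 and 23.8 CPM per kb. These 3 ranges overlapped, so no order among them can be read. Grm4 led group III at 16.1, 30.3 and 14.5 CPM per kb and Grm5 led group I at 17.1, 8.41 and 17.4 CPM per kb, with mouse D highest for the former and lowest for the latter. Gabrd had 13.2, 18.3 and 18.3 CPM per kb and the kainate subunit Grik5 11.5, 14.4 and 16.3. Grid1 led the delta pair at 5.88, 5.91 and 7.34 CPM per kb. Grid2ip, alone in its class, had 2.53, 6.78 and 2.76 CPM per kb. The lowest family was rho, known from the retina, in which Gabrr2 led at 0.0918, 0.381 and 0.167 CPM per kb.

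All but 5 members passed the count filter in brain, which leaves 41 that could be tested there. Grm6, the receptor of retinal ON bipolar cells, had no count in any brain library. Gabrr1 and Gabrr3, with at most 3 counts in any brain library, were at the floor used here. Gabre and Grin3b stayed untested with at most 42 and 14 counts, the most in WT mouse D for each.

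**Figure D1:**
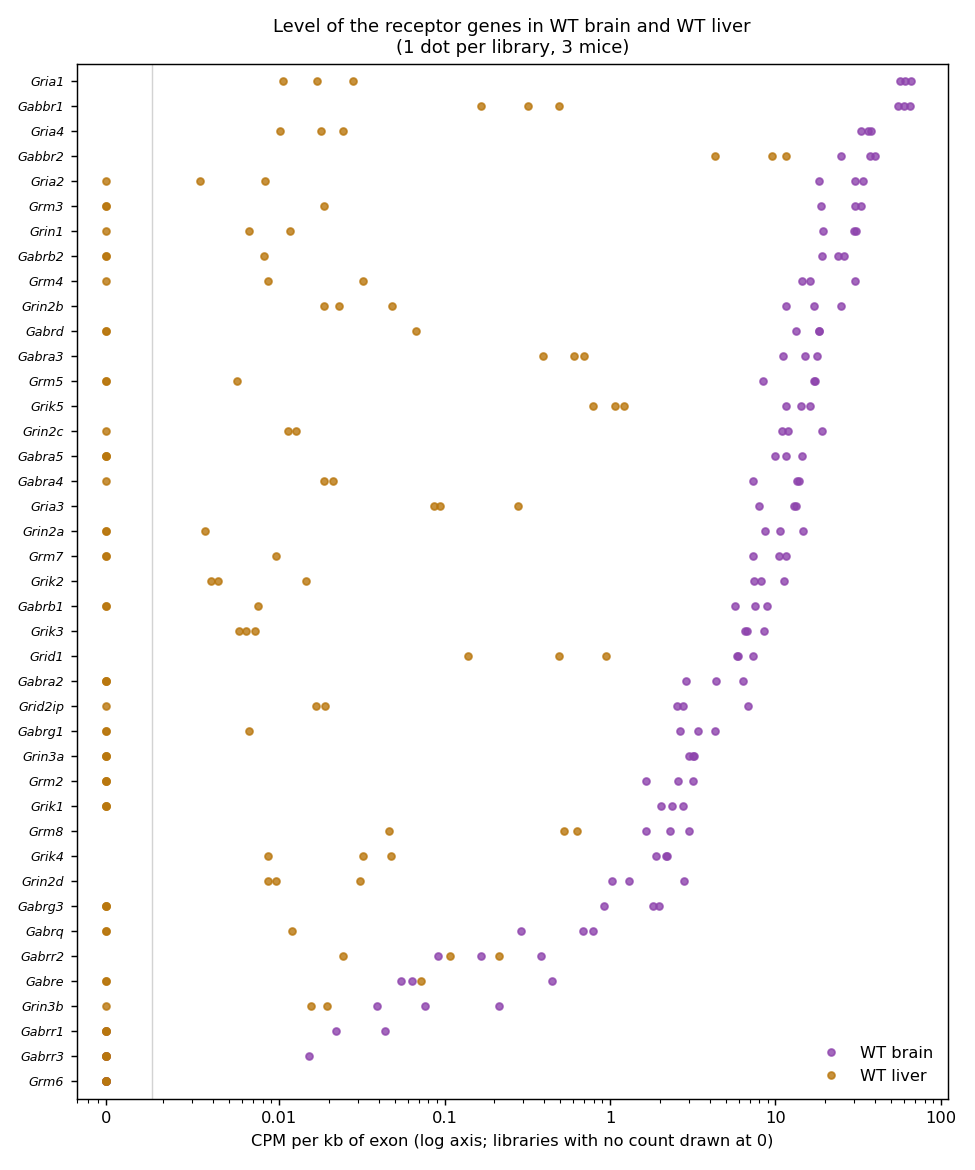
Level of members in CPM per kb of exon (log axis, scaled within each tissue) in the 3 WT brain and 3 WT liver libraries, ordered by mean level in WT brain, with libraries without a count drawn at 0. Brain and liver dots lie apart for every member shown from Gria1 down to Gabrq, and Gabbr2 and Grm8 show the narrowest gaps among the well-detected genes.

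Liver served as background tissue, and there most receptor genes had few or no counts. In WT brain against WT liver, 40 of the 46 members passed the count filter. Of these 40, 29 had at most 3 counts in each WT liver library and 8 of them had none, so they passed through brain, the tissue where they are high, and had to differ. All 40 were called higher in brain at an adjusted p under 0.1, against 42.9% of all 17694 genes tested, a count that the filter largely fixed and from which nothing is read about the members. The other 11 had more than 3 counts in some WT liver library.

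Among the largest fitted differences was that of Grin2a. Grin2a, an NMDA subunit of mature synapses, had a fitted log2 difference of 12.35 (SE 0.48, adjusted p = 4.74e-09), or 5207-fold. It had 1 count over the 3 WT livers and 203 CPM in WT brain. The ratio of these CPM, which are scaled within each tissue, was 10682. Its 95% counting interval from 1917 to 421901 covers counting error only. The fit scaled both tissues together, so ratio and fit are not on the same scale.

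The smallest differences belonged to 3 genes that liver does express. Their CPM below are scaled within each tissue, whereas the log2 differences come from a fit that scales both tissues together. Ratios of the CPM therefore ran higher than the fitted folds. They were 3.93 against 2.51 for Gabbr2, 5.68 against 3.56 for Grm8 and 11.8 against 7.47 for Grid1. Gabbr2 had 63.6, 28.9 and 76.9 CPM in the WT livers of mice B, D and E and 167, 249 and 266 CPM in their brains, a log2 difference of 1.33 (SE 0.33, adjusted p = 0.00423). Its partner Gabbr1, which the functional receptor needs, had only 1.29, 2.50 and 3.804 CPM in the same livers. Grm8, a presynaptic group III receptor, had 6.28, 5.25 and 0.454 CPM in WT liver and 29.6, 16.3 and 22.7 CPM in WT brain, a log2 difference of 1.83 (SE 0.72, adjusted p = 0.0568). Grid1 had 2.93, 0.832 and 5.68 CPM in WT liver and 35.1, 35.2 and 43.8 CPM in WT brain, a log2 difference of 2.90 (SE 0.50, adjusted p = 0.000625). Without mouse B, and again without mouse D, 39 members were called. With the mouse as a block, which pairs the brain and liver of an animal, 40 were called again.

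Many neuron-specific genes carry the RE1 element, through which the repressor REST silences them outside the nervous system, so the promoters of the members were searched for its 2 half-sites. RefSeq windows on GRCm38.p6 from 250 bases before to 50 bases after a gene's start were at hand for 31 of the 46 members. On either strand, GGACAGCGC was found in 1 member, Gria2, and in 0.477% of 27025 genes, and TTCAGCACC in 1 member, Grm2, and in 0.433%. Both windows are shown because they hold the matches. Gria2, the AMPA subunit that sets calcium permeability, averaged 427 CPM in WT brain with 3 counts over the WT livers, and Grm2, a group II receptor, averaged 12.1 CPM with none. The windows run 5′ to 3′ on the minus strand, the strand of both genes, at chr3:80802786-80803085 for Gria2 and chr9:106656060-106656359 for Grm2, with the half-site in capitals. In Gria2 it lies on the opposite strand from base 78 of the window, and in Grm2 on the strand shown from base 9.
Gria2: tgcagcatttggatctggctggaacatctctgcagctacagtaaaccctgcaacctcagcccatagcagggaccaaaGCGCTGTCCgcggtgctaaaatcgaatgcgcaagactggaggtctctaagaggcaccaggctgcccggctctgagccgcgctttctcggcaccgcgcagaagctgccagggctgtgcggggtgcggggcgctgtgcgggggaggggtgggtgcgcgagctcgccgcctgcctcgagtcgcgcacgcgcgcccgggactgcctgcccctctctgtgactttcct
Grm2: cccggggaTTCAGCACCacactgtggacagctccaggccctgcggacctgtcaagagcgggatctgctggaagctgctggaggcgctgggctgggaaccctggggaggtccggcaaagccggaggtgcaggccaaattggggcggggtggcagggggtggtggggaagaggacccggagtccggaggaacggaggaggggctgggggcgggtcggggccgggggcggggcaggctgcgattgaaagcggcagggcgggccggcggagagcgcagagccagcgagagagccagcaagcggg
Neither window holds both half-sites. A match of letters is a description only.

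In the KO against WT brain, the main comparison, no member passed an adjusted p under 0.1. Of all 17188 genes tested, 11 did (0.064%), all higher in KO. At an unadjusted p under 0.05, the members split into 8 higher and 6 lower in KO out of 41. That is 19.5% against 5.96% of all genes for the higher side, and 14.6% against 5.01% for the lower side. The 3 KO libraries lay wholly above the 3 WT libraries for 5 members (12.2%, against 8.41% of all genes) and wholly below for 4 (9.76%, against 7.94%). Those above were Gabra3, Gabra5, Gabrg3, Grm5 and Grik1, and those below included Gabrd and Gria4. The median log2 fold change was 0.13 over the members and -0.00162 over all genes tested. DESeq2 called 2 of 41 members, both lower, and 1.58% of the 16987 genes to which it gave an adjusted p. With no filter on low counts, edgeR called 11 of 45 members and 3.15% of 31780 genes. The count of 14 at an unadjusted p under 0.05 rested on several libraries: it was 5 without mouse A, 5 without mouse D, 6 without mouse F and 3 without mice E and F, where all genes gave 6.18%, 5.30%, 6.16% and 4.71%. In each of the 15 fits tried, all 14 kept their direction, which their choice from the same libraries largely fixed.

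The lower set included Grid2ip of the Purkinje cell synapse and Grm4, Grin2c and Gabrd, which granule cells express. Grid2ip (chr5:143357338-143392152, mm10, plus strand), the scaffold protein, had 17.1, 45.9 and 18.7 CPM in WT mice B, D and E and 3.74, 18.7 and 9.10 CPM in KO mice A, C and F. KO mouse C reached the level of WT mice B and E, so the groups overlapped. The log2 fold change was -1.37 (SE 0.57, adjusted p = 0.441), and it ran from -2.07 without mouse C to -0.77 without mouse D.

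Grm4 (chr17:27422387-27521403, minus strand), the receptor at the parallel fibre terminals of granule cells, had 96.5, 181 and 86.4 CPM in WT and 25.0, 86.7 and 47.9 CPM in KO. KO mouse C and WT mouse E met at the same level. It had a log2 fold change of -1.19 (SE 0.45, adjusted p = 0.411), with -1.74 without mouse C and -0.78 without mouse D. Grin2c (chr11:115249169-115267243, minus strand), the NMDA subunit of mature granule cells, had 55.0, 95.9 and 60.0 CPM in WT and 19.5, 57.9 and 37.6 CPM in KO. Here too only KO mouse C entered the WT range, and the log2 fold change was -0.87 (SE 0.37, adjusted p = 0.446). Gabrd (chr4:155384980-155398112, minus strand) encodes the delta subunit of extrasynaptic GABA-A receptors, in granule cells and also in the forebrain. It had 38.1, 52.7 and 52.5 CPM in WT and 33.4, 35.1 and 34.6 CPM in KO, with no overlap and the tightest KO group of the set. Its log2 fold change was -0.48 (SE 0.16, adjusted p = 0.378).

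Other cerebellar genes moved with this set. Of 7 granule cell markers, 7 had all 3 KO libraries below all 3 WT libraries, and so did 6 of 6 Purkinje cell markers. The summed granule cell markers ran from 87.2 to 519 CPM in KO and from 696 to 1298 CPM in WT, and the summed Purkinje cell markers from 782 to 1332 CPM in KO and from 1735 to 2266 CPM in WT. Itpr1 carried most of the Purkinje cell sum, with 1162, 1594 and 1363 CPM in WT mice B, D and E. Its log2 fold change was -0.75, against a median of -1.57 over that list. No defining marker of either list was at 0. KO mouse A had the least of both sums and WT mouse D the most, which is also the order of the extremes for Grm4, Grin2c and Grid2ip. None of these markers passed an adjusted p under 0.1. The summed markers of the thalamus (70.0 to 81.3 CPM in KO, 81.8 to 130 in WT) and of the choroid plexus, an epithelium without neurons (108 to 179 in KO, 218 to 379 in WT), were lower as well, without overlap. In bulk tissue, fewer cells of a type and less RNA per cell cannot be told apart, and the part of cerebellar content in the lower receptor levels was not tested.

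**Figure D2:**
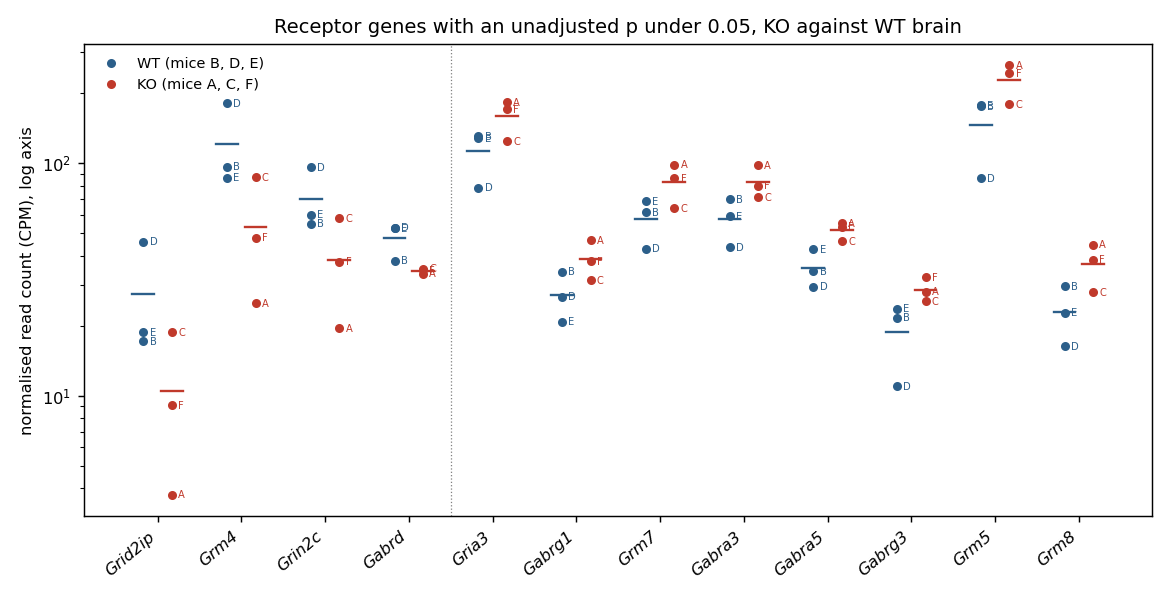
CPM (log axis) of members with an unadjusted p under 0.05 in each brain library, with the mouse letter beside each point and a bar at the group mean, members lower in KO left of the dotted line. Gabrd on the left and Gabra3, Gabra5, Gabrg3 and Grm5 on the right show no overlap between the 3 KO and 3 WT libraries.

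The higher set held 4 GABA-A subunits and 4 glutamate receptors that the forebrain expresses widely. Gabra5 (chr7:57407672-57510059, minus strand), an alpha subunit of extrasynaptic receptors best known from the hippocampus, had 34.3, 29.4 and 42.8 CPM in WT mice B, D and E and 55.1, 46.2 and 53.3 CPM in KO mice A, C and F. Every KO library lay above the highest WT library. The fitted log2 fold change was 0.54 (SE 0.17, adjusted p = 0.355), and Gabra5 was the one member of this set with an unadjusted p under 0.05 in all 15 fits. Gabra3 (chrX:72432681-72656848, minus strand) had 70.0, 43.5 and 59.2 CPM in WT and 97.7, 71.1 and 80.0 CPM in KO. Its groups were just apart, by KO mouse C against WT mouse B, and its log2 fold change was 0.53 (SE 0.19, adjusted p = 0.395).

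The gamma subunits Gabrg3 and Gabrg1 followed. Gabrg3 (chr7:56716465-57387188, minus strand) had 21.6, 10.9 and 23.7 CPM in WT and 27.96, 25.5 and 32.2 CPM in KO, with no overlap and a log2 fold change of 0.61 (SE 0.26, adjusted p = 0.445). Gabrg1 (chr5:70751047-70842617, minus strand), known from the amygdala and hypothalamus and from some glia, had 34.2, 26.6 and 20.7 CPM in WT and 46.6, 31.4 and 37.8 CPM in KO. KO mouse C fell within the WT range, and the log2 fold change was 0.51 (SE 0.21, adjusted p = 0.432).

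Among the glutamate receptors, Grm5 (chr7:87584168-88134907, plus strand), the group I receptor of the forebrain, had 176, 86.2 and 178 CPM in WT and 263, 179 and 244 CPM in KO. WT mouse D was far below the other 5 libraries, and KO mouse C exceeded WT mouse E by a narrow margin. In the fit it had a log2 fold change of 0.64 (SE 0.28, adjusted p = 0.446). Grm8 (chr6:27275119-28135178, minus strand) had 29.6, 16.3 and 22.7 CPM in WT and 44.6, 27.9 and 38.4 CPM in KO, with a log2 fold change of 0.69 (SE 0.24, adjusted p = 0.392). Its neighbour in group III, Grm7 (chr6:110645581-111567230, plus strand), the receptor of the active zone, had 61.5, 42.8 and 68.5 CPM in WT and 98.4, 63.9 and 86.0 CPM in KO, with a log2 fold change of 0.52 (SE 0.21, adjusted p = 0.418). Gria3 (chrX:41400854-41678601, plus strand), an AMPA subunit, had 131, 78.5 and 128 CPM in WT and 183, 124 and 171 CPM in KO, with a log2 fold change of 0.50 (SE 0.22, adjusted p = 0.450). In each of these 3 genes KO mouse C lay inside the WT range and the other KO libraries above it.

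Markers of forebrain regions were read beside this set. All 7 striatal markers had a higher mean level in KO, with none at an unadjusted p under 0.05, and their sum ran from 521 to 725 CPM in KO and from 272 to 519 CPM in WT. Of 8 olfactory bulb markers, 7 were higher at an unadjusted p under 0.05 and 5 were called, among the 11 genes called in all. The 5 called were S100a5, Omp, Doc2g, Sp8 and Cdhr1, with log2 fold changes from 2.72 to 6.21. Their mean levels ran from 0.0812 CPM (S100a5) to 2.21 CPM (Cdhr1) in WT. In KO they ran from 4.69 CPM (Sp8) to 14.8 CPM (Cdhr1). For 6 of the 8 the KO libraries lay wholly above the WT libraries. The sum of the list overlapped, but it was carried by Calb2, with 134, 217 and 101 CPM in WT mice B, D and E and 80.0, 140 and 104 CPM in KO mice A, C and F. Of 5 hippocampal markers 4 were tested, and all 4 had a log2 fold change below 0 (median -0.57). The sum of the 5 overlapped, at 38.4 to 71.6 CPM in KO and 62.8 to 94.8 CPM in WT. Among them Prox1, a marker of dentate granule cells, lay below WT in all KO libraries, with 39.4, 54.7 and 41.7 CPM in WT mice B, D and E and 19.6, 34.7 and 26.0 CPM in KO mice A, C and F (log2 fold change -0.76, SE 0.22, edgeR adjusted p = 0.355). Cortical markers overlapped, with 252 to 272 CPM in KO and 212 to 297 CPM in WT, as did the neuron markers, with 3974 to 4360 CPM in KO and 3791 to 4389 CPM in WT. No marker of these lists was at 0 in all 6 brain libraries, and the olfactory bulb markers S100a5 and Tbx21 were at 0 in WT mouse E. Their part in the receptor levels was not tested.

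**Figure D3:**
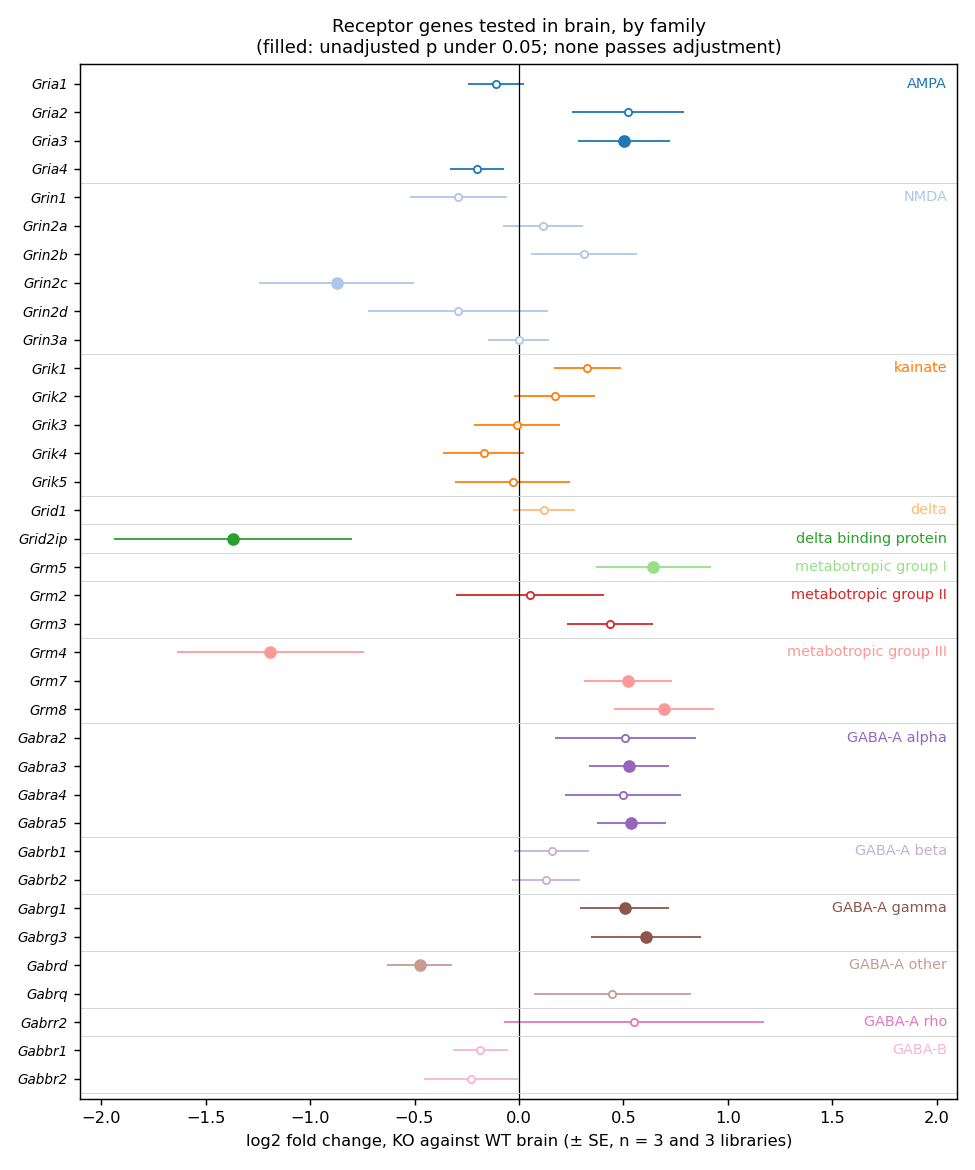
Log2 fold change of KO against WT brain (points, bars ± SE, 3 libraries per group) for members tested, grouped by family, with filled points for an unadjusted p under 0.05. Among the GABA-A members Gabrd is the filled point left of 0, while group III of the metabotropic receptors holds members on both sides.

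By family, the GABA-A subunits leaned one way and the ionotropic glutamate receptors did not. Of the 14 GABA-A members tested, 12 had a log2 fold change above 0 and 2, Gabrd among them, below, with a median of 0.47. Of the 17 AMPA, NMDA, kainate and delta subunits tested, 7 were above 0 and 10 below, with a median of -0.01. Of the 7 metabotropic receptors tested, 5 were above 0 and 2, Grm4 among them, below, with a median of 0.44. Both GABA-B subunits were below 0 with a median of -0.21. These counts carry no test, and only the 14 members counted above had an unadjusted p under 0.05. The 5 kainate subunits ran from -0.17 to 0.33 on the log2 scale.

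Summed over a family per length, the receptor pools of the genotypes overlapped for most classes. The AMPA sum was 129 to 156 CPM per kb in KO and 122.7 to 142 in WT, and the NMDA sum 57.0 to 76.5 in KO and 62.1 to 86.1 in WT. The GABA-A alpha sum was 91.8 to 126 CPM per kb in KO and 76.9 to 104 in WT. On this scale the groups did not overlap for 3 classes, group II with 36.4 to 43.6 CPM per kb in KO and 21.4 to 35.9 in WT, group III with 25.4 to 28.2 in KO and 28.4 to 39.3 in WT, and the class of Gabrd, Gabre and Gabrq with 12.7 to 13.1 in KO and 14.1 to 19.5 in WT. Which classes separated depended on the scale. In CPM not divided by length, group III overlapped, at 168 to 179 CPM in KO and 178 to 240 in WT, and the delta glutamate receptors, which overlapped per length, did not.

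Within families, the makeup was read as each subunit's share of the level per length. Grm4 held 54.6, 77.3 and 50.9% of group III in WT mice B, D and E and 16.4, 51.5 and 30.2% in KO mice A, C and F, and KO mouse C overlapped WT mouse E. Among NMDA subunits, Grin2c held 17.6, 25.0 and 13.8% in WT and 6.8, 15.0 and 10.4% in KO, with KO mouse C inside the WT range. Since these shares belong to members already picked for a low level, they describe the same difference on another scale. The ratio of Grin2a to Grin2b per length, which is known to climb as synapses mature, was 0.626, 0.747 and 0.585 in WT and 0.591, 0.553 and 0.520 in KO, with 1 KO library above the lowest WT library. That ratio was chosen for description after its values were seen.

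**Figure D4:**
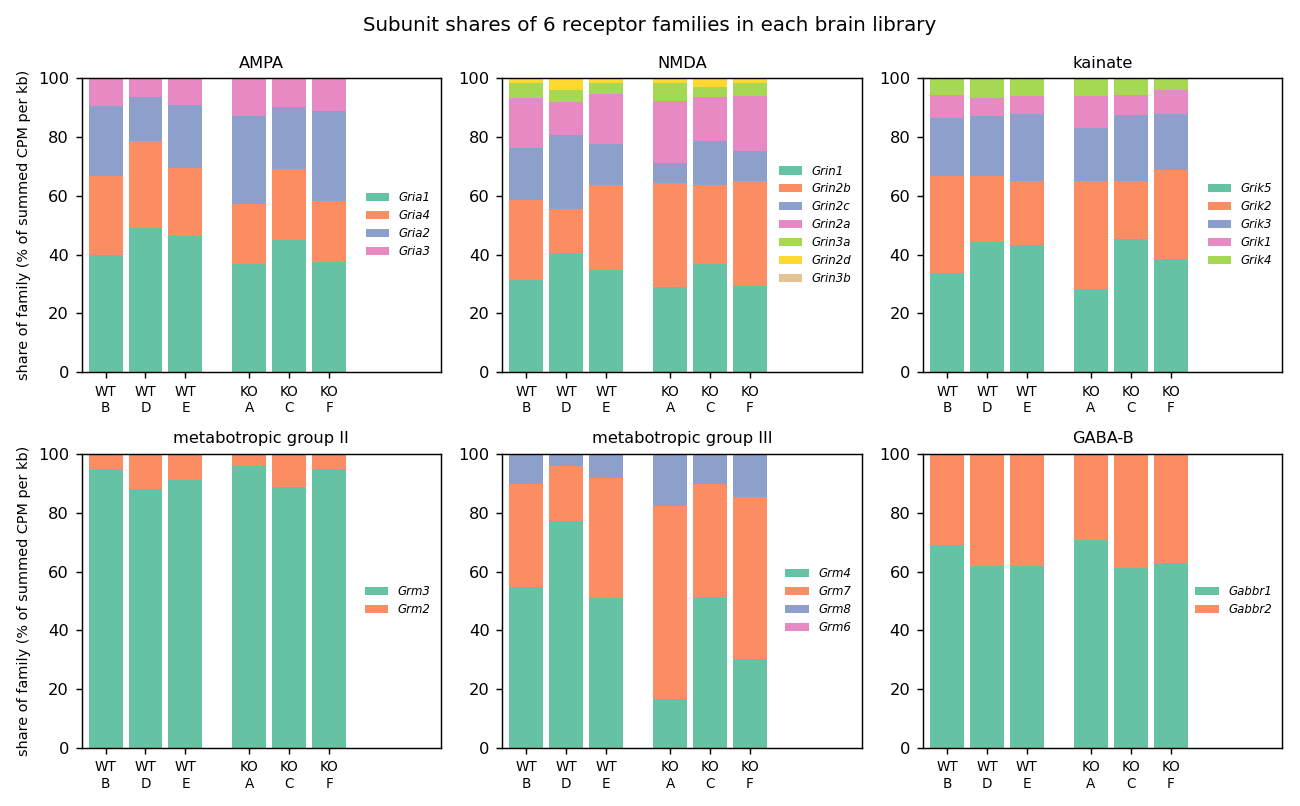
Stacked share of each subunit (percent of the family's summed CPM per kb) in the 6 brain libraries for AMPA, NMDA, kainate, metabotropic group II, metabotropic group III and GABA-B. WT mouse D stands out with the largest shares of Grm4 (77.3%) and Grin2c (25.0%), and KO mouse A with the smallest.

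GABA-A genes lie in clusters, and those within 2 Mb of each other were read together. On chr5 (chr5:70751047-72149037) Gabrg1, Gabra2, Gabra4 and Gabrb1 had log2 fold changes of 0.51, 0.51, 0.50 and 0.16. On chr7 Gabrg3 and Gabra5 had 0.61 and 0.54. The X-linked pair Gabra3 and Gabrq, beside the untested Gabre, had 0.53 and 0.45. The 4 cluster genes with an unadjusted p under 0.05 came from chr5, chr7 and chrX. Gabra4 and Gabrb1 overlap by 196 bp on opposite strands, which the stranded counting keeps apart.

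Genes for proteins that anchor, traffic or supply these receptors were read from a separate list. Of 57 partner genes tested, none was called, 7 were higher and 6 lower at an unadjusted p under 0.05, against 5.96% and 5.01% of all genes. On the lower side the 2 smallest p belonged to Homer3 and Cbln1. Homer3, a postsynaptic scaffold of Purkinje cells, had 41.2, 61.7 and 36.9 CPM in WT mice B, D and E and 6.67, 21.8 and 15.5 CPM in KO mice A, C and F, a log2 fold change of -1.66 (SE 0.39, adjusted p = 0.320). Cbln1, the cerebellin that granule cells release, had 100.4, 137 and 78.2 CPM in WT and 9.998, 45.7 and 37.1 CPM in KO, a log2 fold change of -1.76 (SE 0.48, adjusted p = 0.355). Both were below the WT range in all KO libraries, lowest in mouse A as the cerebellar markers were. On the higher side stood Gad2, an enzyme of GABA synthesis, with 130, 106 and 121 CPM in WT and 205, 148 and 169 CPM in KO, a log2 fold change of 0.55 (SE 0.16, adjusted p = 0.355). Of the 9 genes listed for GABA synthesis, release and uptake, 2 were above 0 and 7 below, with a median of -0.31. Grip1, a scaffold of AMPA receptors, had 20.6, 20.7 and 24.4 CPM in WT and 33.8, 26.1 and 37.3 CPM in KO, a log2 fold change of 0.56 (SE 0.17, adjusted p = 0.355).

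Base composition moved with the fold changes in brain. Over all genes tested, the median log2 fold change ran from 0.25 in the lowest of 5 equal bins of exonic GC content to 0.07, -0.03, -0.12 and -0.16 in the following bins. The members' medians in the same bins were 0.24, 0.47, 0.12, -0.17 and -0.38, over 9, 14, 3, 7 and 8 members. The 8 higher members spanned 35.6 to 47.9% GC, and the 6 lower members 43.4 to 61.6%. Across the 41 members, Spearman's rho of GC content and log2 fold change was -0.58 (Pearson's r -0.64), against -0.42 (r -0.37) over 17168 genes, a description across genes that share the same 6 libraries. With an offset for GC content and length in each library, the medians of all genes lay between -0.02 and 0.00 in each bin. Under that offset 13 of the 14 members kept an unadjusted p under 0.05, and 2 of 41 members were called, both lower, against 79 of 17188 genes (0.46%).

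**Figure D5:**
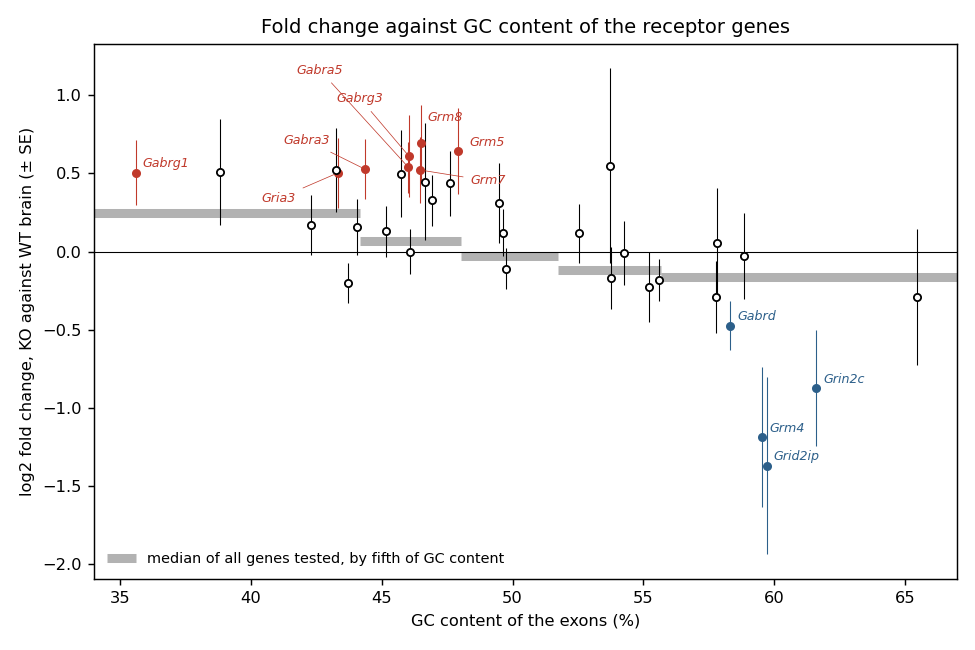
Log2 fold change of KO against WT brain (± SE, 3 libraries per group) against the GC content of the exons for members tested, with red and blue points for those higher and lower at an unadjusted p under 0.05 and grey bars for the median of all genes in each of 5 bins of GC content. The higher members lie at or left of 47.9% GC, and the lower members shown lie right of it.

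The promoters of a lower and a higher member are shown to let the base composition be seen, and were chosen after the fold changes were known. Grin2c (chr11:115267194-115267493) and Gabra5 (chr7:57510010-57510309) are printed as RefSeq windows on GRCm38.p6, 5′ to 3′ on the minus strand, with CG dinucleotides in capitals. Grin2c held 22 CG dinucleotides at 70.0% GC and Gabra5 13 at 56.7%. Over the 31 members matched, the median was 17 CG dinucleotides, against 8 over 27025 genes.
Grin2c: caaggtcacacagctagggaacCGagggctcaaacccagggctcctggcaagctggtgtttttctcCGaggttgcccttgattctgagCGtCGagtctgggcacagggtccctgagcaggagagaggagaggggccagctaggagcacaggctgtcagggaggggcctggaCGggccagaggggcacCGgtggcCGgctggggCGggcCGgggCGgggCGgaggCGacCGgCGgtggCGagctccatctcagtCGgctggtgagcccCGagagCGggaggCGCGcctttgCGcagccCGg
Gabra5: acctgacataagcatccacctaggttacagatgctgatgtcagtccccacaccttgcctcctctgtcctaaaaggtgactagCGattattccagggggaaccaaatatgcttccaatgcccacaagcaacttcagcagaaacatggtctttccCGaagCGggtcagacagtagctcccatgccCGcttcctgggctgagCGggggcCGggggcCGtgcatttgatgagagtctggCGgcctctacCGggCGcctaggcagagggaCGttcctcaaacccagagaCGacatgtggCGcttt
Most of each window lies upstream of the transcript and was not itself counted.

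In liver, 8 members passed the count filter, and none was called in KO against WT, as none of 14075 genes was (0%). DESeq2 called no member either. At an unadjusted p under 0.05 stood 1 of 8 members (12.5%), against 7.33% of all genes. Of the other 38 members, 27 had at most 3 counts in every liver library and 11 had more in some library, up to 21 counts. Gabbr2, the most abundant member in liver, had 63.6, 28.9 and 76.9 CPM in WT and 42.4, 35.9 and 37.1 CPM in KO, chosen here for its level. Without mouse D, the lowest WT liver for it, Gabbr2 was called (log2 fold change -0.87, adjusted p = 0.0923) as 1 of 87 genes, so this call rests on leaving out 1 library.

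The genotype effect in liver minus that in brain was tested over all 12 libraries. None of 42 members and none of 18944 genes was called (0%), with DESeq2 also calling no member. Only 8 members passed the count filter in liver alone. The others entered through brain, where they are high, and had at most 21 counts in any liver library. Their genotype effect in liver was hardly measured, so nothing is read about the members from these counts or from the share below. At an unadjusted p under 0.05 stood 3 of 42 members (7.14%), against 10.6% of all genes. The smallest p among these was that of Gria4, with a log2 difference of 1.97 (SE 0.41, edgeR adjusted p = 0.164), a gene with at most 9 counts in any liver library. With mouse as a block, 68 genes were called and again no member.

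In liver, the levels of Grm8 and Grid1 differed with the Y-linked transcripts, a pattern noticed in the values and then tested. The test used those same values and a grouping read from the counts, so its p-values describe the pattern and are no independent support. Grm8 had 7.71 and 4.81 CPM in KO mice A and C and 6.28 and 5.25 CPM in WT mice B and D, all with Y-linked transcripts. It had 0.626 CPM in KO mouse F and 0.454 CPM in WT mouse E, which have next to none, from 12 and 8 counts. In a fit across all genes that kept the genotype, Grm8 was 11.01-fold higher in liver with Y-linked transcripts, a log2 difference of 3.46 (SE 0.36, adjusted p = 0.000315). Grid1 went the other way, with 2.29, 2.85, 2.93 and 0.832 CPM in mice A, C, B and D against 5.68 CPM in mouse F and 5.68 CPM in mouse E, a log2 difference of -1.35 (SE 0.39, adjusted p = 0.0809). Thus 2 of 8 members were called by this term, against 10.4% of all genes in liver. In brain the same term called no member and 0.0233% of genes, and Grm8 stood at -0.04 (SE 0.27). With 2 mice on one side, the contrast cannot be told apart from anything else those mice share, and the difference between tissues was not tested.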

How the data were processed

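Stranded total RNA libraries (SMARTer Stranded Total RNA-Seq Kit v2) of mouse liver and brain were sequenced as single-end reads. The authors checked reads with FastQC 0.11.5, trimmed them with Trimmomatic, aligned them to mm10 with STAR 2.7.3a and assigned them to exons with featureCounts, set for reverse-stranded libraries. What was deposited is 1 table of raw counts per gene, not normalized, and the authors tested it with DESeq2. The whole numbers were checked. Positions, lengths and GC content come from the GENCODE annotation of mm10, and all 46 members had the same start and end there.

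Counts were fitted with edgeR 4.0.16 in R 4.3.3 (TMM, filterByExpr, robust quasi-likelihood F test, Benjamini-Hochberg over all genes tested, call at an adjusted p under 0.1). Each tissue was fitted on its 6 libraries, WT brain against WT liver on 6, and the difference between tissues on 12. An SE is the log2 fold change divided by the square root of F. Level per kb is CPM over the merged exon length. A floor of 3 counts per library was used. The scripts were tested on simulated data. The members and lists were chosen with earlier results of these data known.

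Fold changes are named for members with an adjusted p under 0.1 or an unadjusted p under 0.05 in a tissue, for the 3 members with the highest and the 3 with the lowest difference between tissues, and for Mettl5. Levels are also given for the leading member of each family. Some members that this rule names are not reported here, in the text or the figures, but are in the counts. Partner genes are named as the 2 smallest p in each direction. Alternatives were RLE size factors, DESeq2 1.42.0, no count filter, mt-Rnr1 and mt-Rnr2 left out, each mouse left out, a term for Y-linked transcripts, all 12 libraries in 1 fit, an offset for GC content and length (a spline with 5 degrees of freedom), an adjusted p under 0.05, and the mouse as a block. The fit without mice E and F, counts at an unadjusted p and the test of the Y-linked term were added after seeing the data.

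Liver and brain of a mouse share its letter and come from 1 animal, so the block pairs tissues. As a check, each mouse's brain and liver deviations from the group mean were correlated over 12574 genes, which gave Pearson's r between -0.0387 and 0.141. The labels do not say which KO and WT mice formed pairs, so genotypes were fitted unpaired. Nothing says that libraries of a group were prepared separately beyond the mouse, and p-values measure the spread between 3 mice. Intervals and floors cover counting error only.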

Additional observations from a re-analysis of the deposited data

How the results depend on the processing

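No member was called in brain under RLE size factors, without mt-Rnr1 and mt-Rnr2, with a term for Y-linked transcripts, with all 12 libraries in 1 fit, at an adjusted p under 0.05, without mice E and F, or with any 1 mouse left out (0 to 0). Members called were 2 of 41 with DESeq2, 11 of 45 with no filter on low counts and 2 of 41 with the GC and length offset, where the genes called were 269 of 16987, 1000 of 31780 and 79 of 17188 instead of 11 of 17188. The genes called in brain were 2 to 23 with 1 mouse left out and 0 without mice E and F. The 14 members at an unadjusted p under 0.05 became 5 to 20 with 1 mouse left out, 9 with all 12 libraries and 3 without mice E and F. No named member turned direction under any of these settings, which reuse the libraries that picked them. With 1 mouse left out, the log2 fold change of Grin2c ran from -1.30 to -0.56, of Gabrg3 from 0.33 to 0.82 and of Gabrg1 from 0.35 to 0.71. That of Gria3 ran from 0.29 to 0.65, of Grm5 from 0.37 to 0.81 and of Grm7 from 0.34 to 0.68. The members' median log2 fold change of 0.13 ranged from 0.0636 to 0.24 with 1 mouse left out. In liver, the members called were 0 to 1 and the genes called 0 to 87 with 1 mouse left out, and the genes called were 171 with DESeq2, 443 with no filter, 82 with the Y-linked term and 3 with all 12 libraries, none of them a member. For WT brain against WT liver, leaving out a mouse gave 39 to 40 members and 12830 to 13432 genes, and no other setting moved these counts by over 1.5 times. For the difference between tissues, no setting called a member, and the genes called were 1 with RLE size factors, 369 with DESeq2, 183 with no filter, 0 to 86 with 1 mouse left out and 68 with the replicate block, which pairs the tissues by mouse. The log2 fold change of Mettl5 ran from -0.999 to -0.55 in brain and from -1.59 to -1.10 in liver with 1 mouse left out. It passed an adjusted p under 0.1 in brain with no filter (-0.86), and in liver with DESeq2 (-1.44), with no filter (-1.43), with the Y-linked term (-1.43) and without mouse D. Why DESeq2 and the unfiltered fit call more genes was not tested. The members' liver counts were mostly at or under 3, which limits the precision of their values there.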
